A study of Mus musculus with 2 samples.

Results

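The CC chemokine transcripts described here are the 10 genes Ccl2, Ccl3, Ccl4, Ccl5, Ccl6, Ccl7, Ccl8, Ccl9, Ccl12 and Ccl22, taken by symbol from the 32285 genes of the count matrices. They were followed through immune cells that had infiltrated the gingiva, the gum tissue, of C57BL/6 mice in a study of experimental periodontitis. There were 2 single-cell RNA libraries, 1 from mice labelled Otud1-/- and 1 from wild-type (WT) mice. OTUD1 belongs to the deubiquitinases, which take ubiquitin tags off proteins. Age, the number of animals pooled, the deleted part of Otud1 and whether both groups had periodontitis are not given in the sources used here. After filtering, 6486 cells of the library labelled Otud1-/- and 11414 cells of the WT library were kept. Median depth was 4197.5 unique molecular identifiers (UMIs, each standing for 1 captured transcript) in the library labelled Otud1-/- and 2128 in the WT library.

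CC chemokines are small secreted proteins that guide leukocytes by binding G protein-coupled receptors of the CCR family. In inflamed tissue they draw monocytes, neutrophils, T cells and dendritic cells out of the blood and position them, and macrophages, mast cells and cytotoxic lymphocytes are among their known sources. In the mm10 build, 9 of the 10 genes lie on chromosome 11 and Ccl22 lies on chromosome 8 (chr8:94745590-94751699, plus strand). Ccl2, Ccl7, Ccl12 and Ccl8 follow each other on the plus strand over 81.2 kb (chr11:82035571-82116799). Ccl5, Ccl9, Ccl6 and Ccl3 on the minus strand and Ccl4 on the plus strand span 139 kb (chr11:83525778-83664683). Each gene has 3 or 4 exons in the annotated transcript with the most, and the tag of this assay falls near the 3′ end. Ccl2 overlaps Gm17268 and Ccl6 overlaps E230016K23Rik, both on the opposite strand, and whether this touched their counts was not tested. No 50-base stretch of the members' transcripts was shared with another gene except in Ccl9 (1.97% of its stretches), and none was shared among the 10 members.

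Facts about the libraries bear on each comparison. Otud1 itself was not lower in the library labelled Otud1-/-, which held 1456 Otud1 UMIs (33 CPM, UMIs scaled to 1 common library total), against 834 UMIs (18.6 CPM) in the WT library. A 3′ tag outside the deleted part checks nothing, so that library is named by its label only and every direction rests on it. The library labelled Otud1-/- held almost no Xist, a marker RNA of female cells, whereas the WT library mixed cells with female and with male transcripts. Among NK-like cells, for example, 0% of the library labelled Otud1-/- and 35.6% of the WT library had an Xist UMI. The libraries shared 37 cell barcodes. With 1 library per genotype no test can be made, and all 95% intervals cover counting error only.

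Cells were clustered without any Ccl gene and classes were named "-like" from marker genes. Members made up the largest shares of RNA in a small monocyte/macrophage-like cluster, in NK-like cells and in a small T-like cluster. Cluster 14, a monocyte/macrophage-like group led by Mmp13, Mmp12 and Ch25h, devoted 1.84% of its UMIs to the 10 members in the library labelled Otud1-/- (34 cells) and 2.18% in the WT library (176 cells). NK-like cells devoted 1.75% to them in the library labelled Otud1-/- and 1.27% in WT, and T-like cluster 23, led by Gzmk, Klrc1 and Cd8a, 2.1% in the library labelled Otud1-/- and 1.23% in WT. In both, nearly all of it was Ccl5. Mast cell/basophil-like cells followed with 0.825% in the library labelled Otud1-/- and 0.669% in the WT library. B-like cells devoted 0.00676% in the library labelled Otud1-/- and 0.014% in WT. Summed over cells, monocyte/macrophage-like cells held 31.2% of all member UMIs in the library labelled Otud1-/- and 45.2% in the WT library. NK-like cells held 23.9% in the library labelled Otud1-/- and 17.5% in WT. Neutrophil-like cells held 14.3% in the library labelled Otud1-/- and 8.7% in WT. After each cell was thinned to 1000 UMIs, a UMI of at least 1 member was found in 74.1% of monocyte/macrophage-like cells of the library labelled Otud1-/- and 77.2% of those of the WT library. UMIs of at least 3 members were found in 58.6% of the thinned cells of cluster 14 in the library labelled Otud1-/- and 60.7% in WT.

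**Figure D1:**
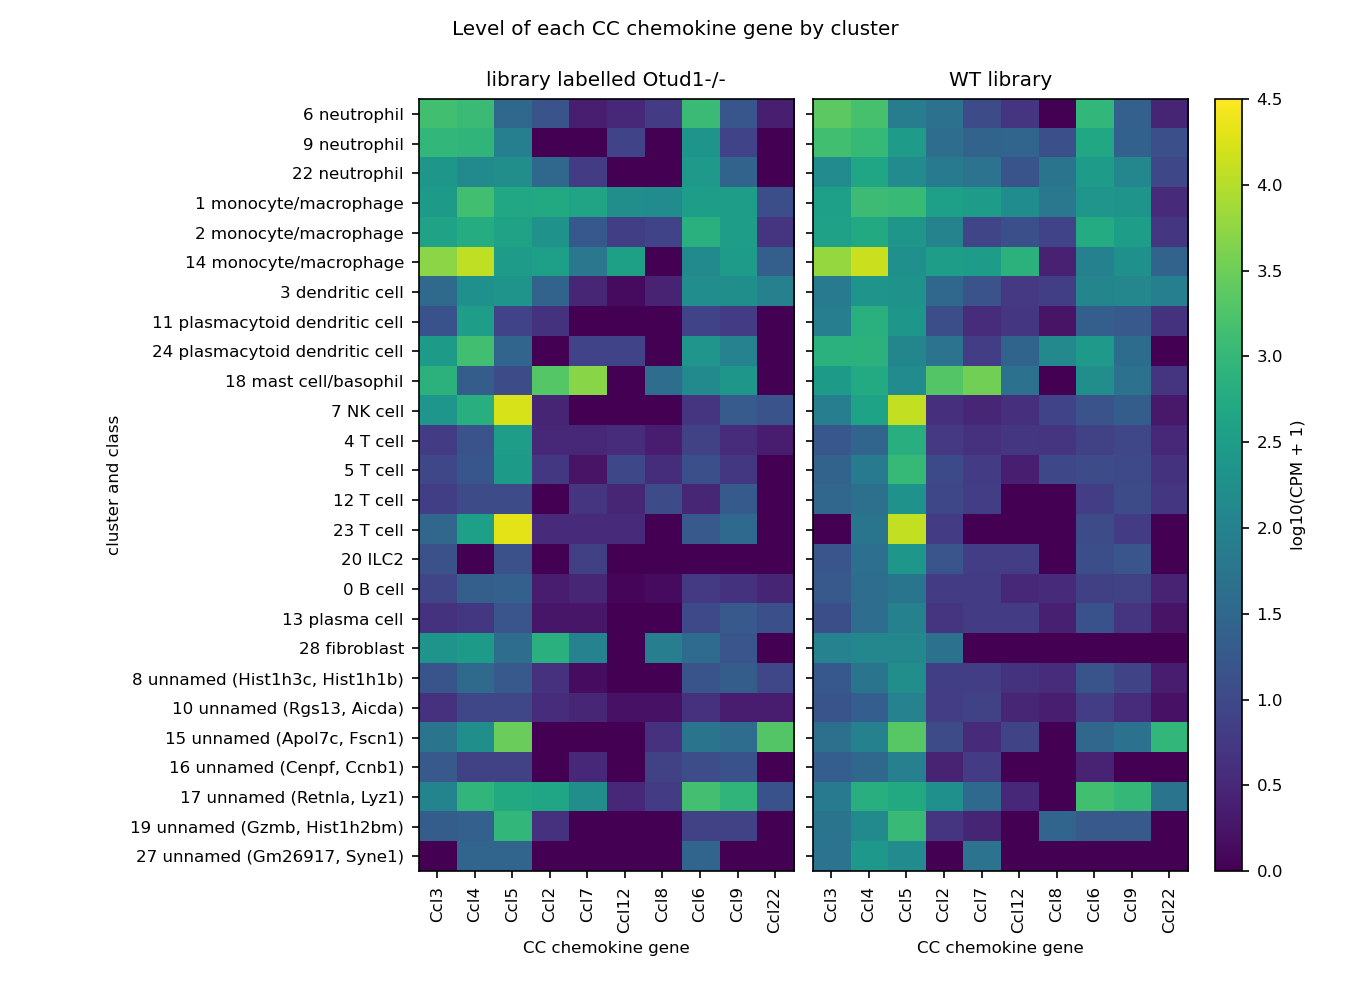
Level of the 10 CC chemokine genes (columns) in each cluster with at least 17 cells in both libraries (rows, with class names that mean "-like"), as log10(CPM + 1) by colour, in the library labelled Otud1-/- (left) and the WT library (right). Ccl3 and Ccl4 were brightest in cluster 14, Ccl5 in clusters 7 and 23, Ccl2 and Ccl7 in cluster 18 and Ccl22 in cluster 15, in both libraries.

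**Figure D2:**
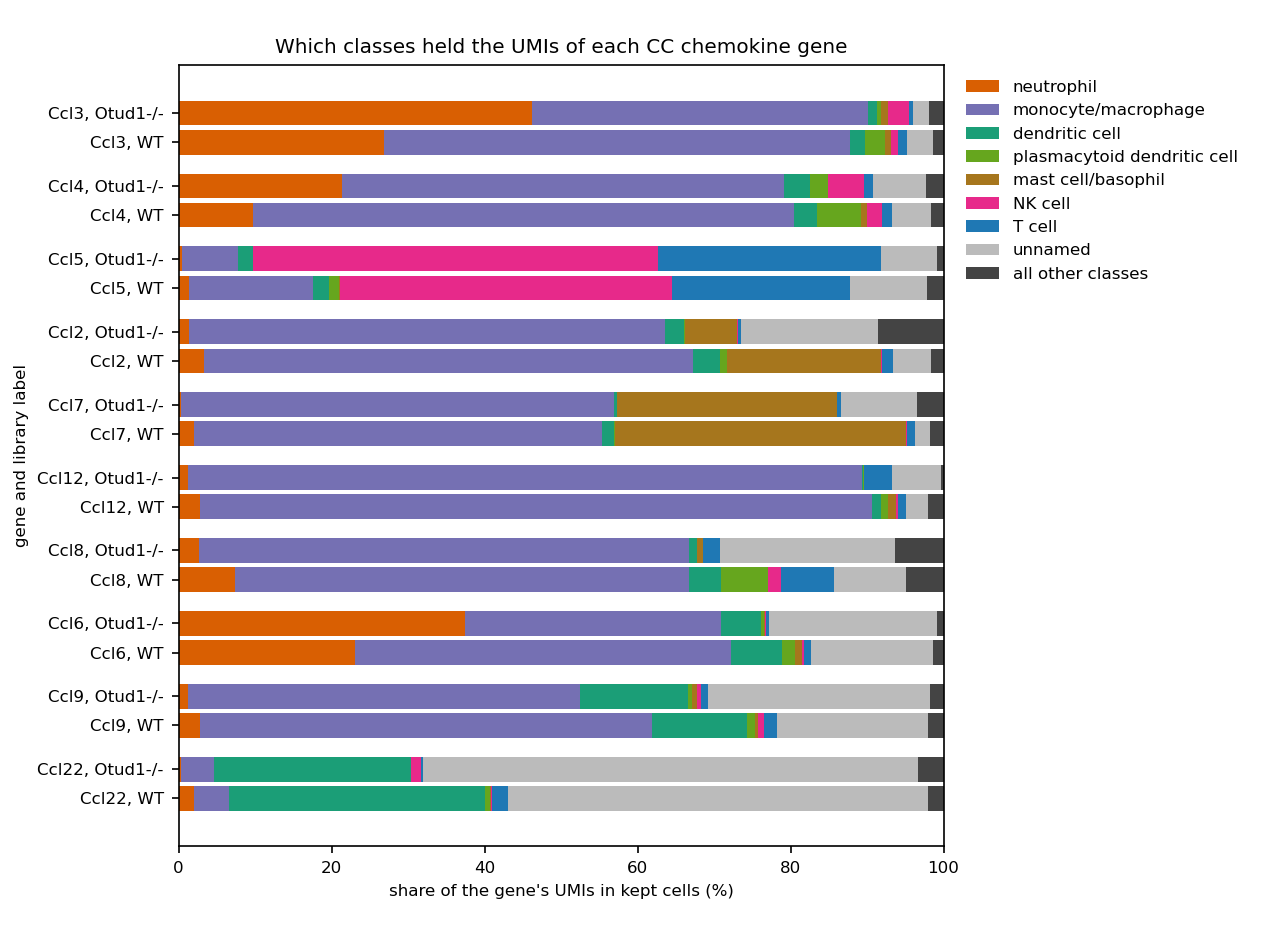
Share of each gene's UMIs held by each class of kept cells, in percent, with the bar of the library labelled Otud1-/- above that of the WT library for each gene. Most UMIs of Ccl2, Ccl7, Ccl8, Ccl9 and Ccl12 were in monocyte/macrophage-like cells, those of Ccl5 in NK-like and T-like cells and those of Ccl22 in an unnamed cluster and dendritic-like cells.

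Ccl3 and Ccl4, inflammatory chemokines of which Ccl3 binds CCR1, were strongest in cluster 14. Neutrophil-like clusters 6 and 9 came next for Ccl3 in both libraries and also carried Ccl4. Ccl3 stood at 5301 CPM (5068 to 5542) in cluster 14 of the library labelled Otud1-/- and 6065 CPM (5873 to 6262) in that of the WT library. Ccl4 stood there at 11594 CPM (11249 to 11948) in the library labelled Otud1-/- and 13876 CPM (13585 to 14172) in WT. After thinning, 93.1% of the cells of the library labelled Otud1-/- and 94.6% of those of WT had a Ccl4 UMI. The cluster held 26.9% of the Ccl4 UMIs of the library labelled Otud1-/- and 42.8% of those of the WT library. In the library labelled Otud1-/-, 10 cells carried 66.5% of the Ccl4 UMIs of the cluster, so its level there rests on few cells. The cluster was thus the highest for both genes by a wide margin in both libraries.

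Neutrophil-like cells came as 2 main clusters that the libraries filled unequally. Cluster 6, led by Stfa2l1 and Cxcr2, held 773 cells of the library labelled Otud1-/- and 159 of WT, and cluster 9, led by G0s2 and Il1f9, held 75 of the library labelled Otud1-/- and 585 of WT. Whether such a cluster stands for a cell state or for its library cannot be told apart here. Ccl3 was at 1368 CPM (1325 to 1411) in cluster 6 of the library labelled Otud1-/- and 2354 CPM (2223 to 2489.8) in that of the WT library. In cluster 9 it was at 957 CPM (802 to 1133) in the library labelled Otud1-/- and 1391 CPM (1317 to 1467) in WT. Within each of these clusters the library labelled Otud1-/- was the lower, by a ratio of 0.581 (0.545 to 0.62) in cluster 6 and 0.688 (0.572 to 0.822) in cluster 9. Ccl4 in cluster 6 was at 1150.2 CPM in the library labelled Otud1-/- and 1577 CPM in WT, a ratio of 0.729 (0.675 to 0.788). In cluster 9 Ccl4 was at 893 CPM in the library labelled Otud1-/- and 1013 CPM in WT, a ratio of 0.881 (0.726 to 1.06) whose interval includes no difference. Other scalings moved the log2 ratios of the whole neutrophil-like class up by 0.54 and 0.66. They were not applied by cluster, so how far these cluster ratios depend on scaling was not tested. Neutrophil-like cells held 46.2% of all Ccl3 UMIs in the library labelled Otud1-/- and 26.9% in the WT library. Their share of Ccl4 UMIs was 21.4% in the library labelled Otud1-/- and 9.69% in WT.

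Ccl4 was also carried by other clusters. Monocyte/macrophage-like cluster 1, led by Pf4 and the complement genes C1qa, C1qb and C1qc, had 1397 CPM of Ccl4 in the library labelled Otud1-/- and 1209 CPM in the WT library. Monocyte/macrophage-like cluster 2, led by Ace, Vcan and F13a1, had 598 CPM in the library labelled Otud1-/- and 548 CPM in WT. Plasmacytoid dendritic-like cells had 534 CPM (481 to 590.3) in the library labelled Otud1-/- and 716 CPM (675 to 759) in WT, and 1 cell held 93.8% of the Ccl4 UMIs of their cluster 24 in the library labelled Otud1-/-. NK-like cells had 696 CPM (646 to 748) in the library labelled Otud1-/- and 414 CPM (375 to 456) in WT. In B-like cells, taken as background although free RNA was not measured apart, Ccl4 was at 22.4 CPM in the library labelled Otud1-/-, where 3.85% of cells had a UMI at a median depth of 3465 UMIs. In WT B-like cells it was at 39.1 CPM and 9.55% of cells had a UMI, at 2672 UMIs. In neutrophil-like cells those unthinned shares were 33.3% in the library labelled Otud1-/-, at a median of 2663 UMIs, and 37.6% in WT, at 1577 UMIs.

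Ccl5, which recruits T cells and monocytes through receptors such as CCR1 and CCR3 and is stored by cytotoxic lymphocytes, had the most UMIs of the 10 genes. There were 32961 UMIs (867 CPM) in kept cells of the library labelled Otud1-/- and 28091 UMIs (825 CPM) in those of the WT library. NK-like cells stood at 16548 CPM (16303 to 16795) in the library labelled Otud1-/- and 12168 CPM (11953 to 12386) in the WT library, and 89.2% of thinned cells of the library labelled Otud1-/- and 86.8% of those of WT had a UMI. T-like cluster 23 had 20535 CPM (20100.4 to 20977) in the library labelled Otud1-/- and 12209.6 CPM (11727 to 12707) in WT. The level of cluster 23 lay above that of NK-like cells in the library labelled Otud1-/-, while in the WT library the intervals of the 2 overlapped. Of all Ccl5 UMIs, NK-like cells held 52.9% in the library labelled Otud1-/- and 43.4% in WT.

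The remaining T-like clusters went the other way between the libraries. Cluster 4, led by Lef1 and Tcf7, had 329.7 CPM (306 to 354) in the library labelled Otud1-/- and 701 CPM (667 to 736) in the WT library. Cluster 5, led by Tnfrsf4, Ctla4 and Ikzf2, had 286 CPM (259 to 316) in the library labelled Otud1-/- and 1045 CPM (1003 to 1089) in WT. Both were lower in the library labelled Otud1-/-, by ratios of 0.47 (0.431 to 0.513) and 0.274 (0.246 to 0.305), whereas cluster 23 was higher by 1.68 (1.61 to 1.76). Cluster 12, led by Trdc and Cd163l1, was lower too, with 9.94 CPM from 5 UMIs in the library labelled Otud1-/- and 196 CPM in WT. Cluster 23 held 93 of 894 T-like cells of the library labelled Otud1-/- and 51 of 1817 of the WT library. Monocyte/macrophage-like cluster 1 had 489.9 CPM in the library labelled Otud1-/- and 1096 CPM in the WT library, a ratio of 0.447 (0.417 to 0.479). Cluster 2 of the same class had 391 CPM in the library labelled Otud1-/- and 237 CPM in WT, a ratio of 1.65 (1.5 to 1.82). B-like cells, taken as background, had 23.3 CPM (20.6 to 26.3) in the library labelled Otud1-/- and 54.1 CPM (48.4 to 60.2) in WT. A Ccl5 UMI was found in 6.79% of B-like cells of the library labelled Otud1-/- and 12.2% of those of WT. Background Ccl5 was thus itself lower in the library labelled Otud1-/-, and its part in the ratios of low clusters was not tested. T-like cluster 12 of that library lay below the B-like level.

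Ccl2 and Ccl7, ligands of the monocyte receptor CCR2, shared mast cell/basophil-like cells as their strongest site. This cluster 18, led by the mast cell proteases Mcpt4, Cpa3, Tpsb2 and Cma1, held 22 cells of the library labelled Otud1-/- and 143 of the WT library. Ccl7 reached 4934 CPM (4509 to 5387) in the library labelled Otud1-/- and 3444 CPM (3223 to 3676) in the WT library. Ccl2 reached 2099 CPM (1825 to 2402) in the library labelled Otud1-/- and 1999 CPM (1831 to 2177) in WT, intervals that overlap. A Ccl2 UMI was found in 72.7% of the thinned cells of the library labelled Otud1-/- and 67% of those of WT. For Ccl7 these shares were 68.2% in the library labelled Otud1-/- and 58% in WT. Although mast cell/basophil-like cells were 0.339% of kept cells in the library labelled Otud1-/- and 1.25% in WT, they held 28.7% of the Ccl7 UMIs of the library labelled Otud1-/- and 38% of those of the WT library.

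Monocyte/macrophage-like cluster 1 came next among clusters with at least 100 cells in both libraries. Its Ccl2 level was 541 CPM (510.2 to 573) in the library labelled Otud1-/- and 345 CPM (326 to 365) in the WT library, and its Ccl7 level 429 CPM (401 to 458) in the library labelled Otud1-/- and 303 CPM (285 to 322) in WT. Ccl2 was also found in cluster 2 of this class, with 196 CPM in the library labelled Otud1-/- and 101 CPM in WT. Ccl7 had 16.5 CPM there in the library labelled Otud1-/- and 7.7 CPM in WT, far under its level in cluster 1. The smaller cluster 14 of this class had 348 CPM of Ccl2 in the library labelled Otud1-/- and 330 CPM in WT. Its Ccl7 level was 59.8 CPM in the library labelled Otud1-/- and 288 CPM in WT. The unnamed cluster 17, led by Retnla, Lyz1, Fcrls and Mgl2, had 461 CPM of Ccl2 in 59 cells of the library labelled Otud1-/- and 182 CPM in 106 cells of the WT library. Fibroblast-like cells of the library labelled Otud1-/- had 706 CPM of Ccl2, but 1 of the 34 cells held 55% of these UMIs. Background was low for both genes. NK-like cells of the library labelled Otud1-/- had 0 Ccl7 UMIs, which allows up to 2.85 CPM, and those of the WT library had 2.0 CPM.

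Ccl12 and Ccl8 are neighbours of Ccl2 and Ccl7 on chromosome 11. Ccl12 is a mouse ligand of CCR2, and mouse Ccl8 acts through CCR8. Both had more UMIs in monocyte/macrophage-like cluster 1 than in any other cluster, while the cluster with the highest Ccl12 level was another one. Ccl12 was highest in cluster 14, with 354 CPM (295 to 419.8) in the library labelled Otud1-/- and 768 CPM (701 to 840.3) in the WT library, and next in cluster 1, with 163 CPM (146 to 181) in the library labelled Otud1-/- and 154 CPM (142 to 168) in WT. Ccl8 was near background in cluster 14, with 0 UMIs in the library labelled Otud1-/- and 1 in the WT library, and was highest in cluster 1 among the named clusters with at least 100 cells in both libraries. There it had 147 CPM (132 to 165) in the library labelled Otud1-/- and 62.9 CPM (54.9 to 71.8) in WT. Kept cells held 83.5% of the Ccl8 UMIs of the library labelled Otud1-/- and 55.0% of those of WT. For Ccl12 these shares were 95.4% and 57.8%. Over all barcodes Ccl8 was instead the lower in the library labelled Otud1-/-, with 14.2 CPM against 16.4 CPM in WT. Few cells held it, with a UMI in 5.37% of the thinned cells of cluster 1 in the library labelled Otud1-/- and 4.14% in WT, and 10 cells held 91.3% of its Ccl8 UMIs in the library labelled Otud1-/-. In the unnamed cluster 26, led by Cfb, Gbp2 and Cxcl9, all 109 Ccl8 UMIs of the library labelled Otud1-/- came from 1 cell. Among smaller clusters, plasmacytoid dendritic-like cluster 24 had the highest Ccl8 level of the WT library, 133 CPM from 24 UMIs in 73 cells. It had 0 Ccl8 UMIs in 20 cells of the library labelled Otud1-/-.

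The 250 bases before the start sites of these neighbours are shown because the genes sit side by side and share the monocyte/macrophage-like class while differing in cluster 14. The sequences are those of RefSeq on GRCm38.p6, plus strand, at chr11:82114935-82115184 for Ccl8 and chr11:82101595-82101844 for Ccl12. Capitals mark matches of TATAAA, searched on both strands.
Ccl8: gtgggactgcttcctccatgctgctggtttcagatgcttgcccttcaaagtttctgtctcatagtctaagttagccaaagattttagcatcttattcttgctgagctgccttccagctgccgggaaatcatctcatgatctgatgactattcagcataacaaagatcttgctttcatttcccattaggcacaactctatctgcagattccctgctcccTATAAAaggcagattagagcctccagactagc
Ccl12: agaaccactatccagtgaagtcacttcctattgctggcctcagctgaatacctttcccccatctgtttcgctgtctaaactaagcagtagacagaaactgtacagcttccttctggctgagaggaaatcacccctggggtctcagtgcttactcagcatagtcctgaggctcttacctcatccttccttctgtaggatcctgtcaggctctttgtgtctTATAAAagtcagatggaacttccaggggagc
Each holds 1 match, whose first base lies 32 bases before the start of Ccl8 and 31 bases before that of Ccl12. In the same window, 12.4% of the 32851 promoters of the table hold TATAAA. The 2 windows also each hold GAGGAA, found in 23.3% of all promoters, and neither holds TGANTCA, found in 6.75%. Among the 15 pairs that the 6 members in the table form (Ccl3, Ccl6, Ccl8, Ccl9, Ccl12 and Ccl22), Ccl8 and Ccl12 aligned with the highest score, with 161 identical bases (64.4% of the window). The other pairs had 55.6% to 62.0%.

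Ccl6 and Ccl9, ligands of CCR1 that are known from rodents, were myeloid transcripts that parted in neutrophil-like cells. Both were highest in the unnamed cluster 17. Ccl6 had 1416 CPM (1341 to 1494) there in the library labelled Otud1-/- and 1386 CPM (1280.4 to 1499) in the WT library, and Ccl9 had 879.7 CPM (821 to 942) in the library labelled Otud1-/- and 1005 CPM (915 to 1101) in WT. The ratio was 1.02 (0.928 to 1.12) for Ccl6 and 0.876 (0.78 to 0.984) for Ccl9, whose interval lies just under 1. Monocyte/macrophage-like cluster 2 had 705 CPM of Ccl6 in the library labelled Otud1-/- and 593 CPM in WT, and 336 CPM of Ccl9 in the library labelled Otud1-/- and 313 CPM in WT. In neutrophil-like cells, Ccl6 was at 1069.7 CPM (1034 to 1106) in the library labelled Otud1-/- and 592 CPM (558 to 628) in the WT library, while Ccl9 was at 15.2 CPM in the library labelled Otud1-/- and 42.8 CPM in WT. Ccl6 was found in 56.3% of the thinned cells of cluster 6 in the library labelled Otud1-/- and 53.5% in WT, and its 10 highest cells held 7.78% of its UMIs there in the library labelled Otud1-/-, so it was spread over many cells. In cluster 6 it was at 1166 CPM (1126 to 1206) in the library labelled Otud1-/- and 970.1 CPM (887 to 1059) in WT. In cluster 9 it was at 214 CPM (145 to 306) in the library labelled Otud1-/- and 504 CPM (460.5 to 551) in WT. The library labelled Otud1-/- was thus above WT in cluster 6, with a ratio of 1.2 (1.09 to 1.32), and below it in cluster 9, with a ratio of 0.425 (0.284 to 0.614). Dendritic-like cells carried 177 CPM of Ccl9 (162 to 192) in the library labelled Otud1-/- and 120.5 CPM (108 to 134) in WT. As background, NK-like cells had 3.8 CPM of Ccl6 in the library labelled Otud1-/- and 13 CPM in WT, and B-like cells had 3.57 CPM of Ccl9 in the library labelled Otud1-/- and 6.76 CPM in WT.

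The promoters of this pair are shown because the genes lie 9.25 kb apart on the minus strand and differed in neutrophil-like cells. The RefSeq windows on GRCm38.p6, minus strand, are chr11:83593088-83593337 for Ccl6 and chr11:83578637-83578886 for Ccl9, with TATAAA on either strand in capitals.
Ccl6: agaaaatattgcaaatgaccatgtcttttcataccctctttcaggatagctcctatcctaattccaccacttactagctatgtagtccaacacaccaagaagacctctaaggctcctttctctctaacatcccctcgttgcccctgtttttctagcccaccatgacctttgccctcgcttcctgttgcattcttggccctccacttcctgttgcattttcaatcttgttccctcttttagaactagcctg
Ccl9: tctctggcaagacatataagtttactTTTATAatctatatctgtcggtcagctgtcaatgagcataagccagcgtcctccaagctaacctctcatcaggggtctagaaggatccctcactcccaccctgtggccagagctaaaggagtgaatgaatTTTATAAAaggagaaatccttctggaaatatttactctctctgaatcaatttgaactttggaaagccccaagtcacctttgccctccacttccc
The Ccl6 window holds 0 matches of TATAAA, and that of Ccl9 holds 3, of which 2 overlap. TGANTCA was found in the Ccl9 window, 53 bases before its start, and GAGGAA in neither. The pair had 146 identical bases (58.4%), within the range of the other pairs. These are matches of letters only.

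Ccl22, which attracts CCR4-bearing T cells and is known from dendritic cells and macrophages, was highest in 1 small cluster. The unnamed cluster 15, led by Apol7c, Fscn1, Cacnb3 and Il12b, stood at 2015 CPM (1858 to 2181) in 35 cells of the library labelled Otud1-/- and 952 CPM (859 to 1052) in 152 cells of the WT library, a ratio of 2.12 (1.86 to 2.41). This cluster held 58.9% of all Ccl22 UMIs in the library labelled Otud1-/- and 51.2% in WT. It was also the cluster with the highest level of Ccr7, a receptor that leads dendritic cells to lymph nodes, with 2519.7 CPM in the library labelled Otud1-/- and 2089 CPM in WT. No class had 3 of its markers among the cluster's 50 leading genes, so it stays unnamed. Dendritic-like cells of cluster 3 had 90.3 CPM (79.8 to 102) in the library labelled Otud1-/- and 87.7 CPM (77.1 to 99.2) in WT, and 10 cells held 78.7% of these UMIs in the library labelled Otud1-/- and 74.5% in WT. T-like cells had 0.657 CPM in the library labelled Otud1-/- and 2.91 CPM in WT. Cluster 15 also had 3018 CPM of Ccl5 in the library labelled Otud1-/- and 2136 CPM in WT, the highest Ccl5 level outside NK-like and T-like cells in both libraries.

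Levels were then set side by side for members whose mean was 50 CPM or more, with 100 UMIs or more in the higher library, and those that differed by 1.5-fold or more were counted. Over all kept cells, 7 of 10 members could be compared. Of these, 1 was higher in the library labelled Otud1-/- (background over all genes compared, 3.9%) and 1 was lower (1.64%). Ccl6 was the higher one, with 237 CPM in the library labelled Otud1-/- against 139 CPM in WT, a ratio of 1.71 (1.65 to 1.77). Ccl7 was the lower one, with 45.5 CPM in the library labelled Otud1-/- against 69.8 CPM in WT, a ratio of 0.652 (0.612 to 0.694). Ccl4 had a ratio of 0.706 (0.692 to 0.721), Ccl3 0.807 (0.784 to 0.831), Ccl9 1.19 (1.13 to 1.25), Ccl2 1.05 (1.0 to 1.11) and Ccl5 1.05 (1.03 to 1.07). Over all barcodes, before any cell was left out, Ccl2 was the lower in the library labelled Otud1-/-, with 74.2 CPM in the library labelled Otud1-/- and 88.9 CPM in WT. Kept cells held 94% of its UMIs in the library labelled Otud1-/- and 65.5% in WT. For Ccl7, which was at 41.5 CPM and 87.3 CPM over all barcodes, these shares were 94.4% and 60.6%. The median log2 ratio of the 7 was 0.07, against 0.00 for all 2741 genes compared. Both the makeup of the libraries and the levels within cells enter these totals, and their parts were not separated. Neutrophil-like cells were 13.3% of the library labelled Otud1-/- and 7.65% of the WT library. Monocyte/macrophage-like cells were 7.85% of the library labelled Otud1-/- and 19.3% of WT, and mast cell/basophil-like cells 0.339% and 1.25%. Within clusters 18 and 1, which held most Ccl7 UMIs, Ccl7 was instead higher in the library labelled Otud1-/-. The ratios there were 1.43 (1.28 to 1.6) and 1.41 (1.29 to 1.55), while cluster 14 had 0.208 (0.127 to 0.324). Over all kept cells, Ccl6 stayed past 1.5-fold under 7 of 8 alternatives, and had a log2 ratio of 0.58 with cells weighted equally. Ccl7 stayed past it under 5 of 8, and had -0.33 with at most 5% mitochondrial UMIs.

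In NK-like cells, 2 of the 3 members compared were higher in the library labelled Otud1-/- (background 5.6%) and 0 were lower (background 5.03%). Ccl3 stood at 233 CPM in the library labelled Otud1-/- against 81.8 CPM in WT, a ratio of 2.84 (2.21 to 3.7). Ccl4 had a ratio of 1.68 (1.49 to 1.9) and Ccl5 of 1.36 (1.33 to 1.39). Values also differed between cells grouped by sex-linked transcripts. Depth enters this grouping, since a Y-linked UMI can be missed in a shallow cell, and its part was not tested. Median depth of NK-like cells was 4202 UMIs in the library labelled Otud1-/- (217 cells) and 1371.5 in WT (522 cells). Among NK-like cells with a Y-linked UMI and no Xist UMI, Ccl3 was at 139.7 CPM in 141 cells of the library labelled Otud1-/- (105 UMIs) and 144 CPM in 75 cells of the WT library (29 UMIs). Ccl4 was at 601 CPM in those of the library labelled Otud1-/- and 522 CPM in those of WT. In the 186 WT NK-like cells with an Xist UMI, Ccl3 was at 46.7 CPM and Ccl4 at 322 CPM. The library labelled Otud1-/-, which had 0 such cells, also had less Ccl3 and Ccl4 in its cells with a Y-linked UMI than in all its NK-like cells (Ccl3 at 233 CPM and Ccl4 at 696 CPM), and the part of sex in the difference was not tested. Neither gene reached 1.5-fold among cells with a Y-linked UMI and no Xist UMI, and both passed it under the other 9 alternatives.

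Monocyte/macrophage-like cells allowed 8 members to be compared, of which 1 was higher (background 6.55%) and 2 were lower (background 3.19%). Ccl6 had a ratio of 1.5 (1.42 to 1.59), at the threshold, Ccl5 of 0.612 (0.582 to 0.643) and Ccl12 of 0.54 (0.484 to 0.602). The log2 ratio of Ccl12 came to -0.40 with at most 5% mitochondrial UMIs, that of Ccl5 to -0.20 in cells with a Y-linked UMI and no Xist, and that of Ccl6 to 0.48 in the same cells, all within 1.5-fold. The class was made up differently in the libraries. Cluster 1 was 155 of 509 such cells in the library labelled Otud1-/- and 1116 of 2199 in WT, and cluster 2 was 320 in the library labelled Otud1-/- and 907 in WT. Within clusters 1, 2 and 14, the ratio of Ccl6 was 1.41, 1.19 and 1.43, all under 1.5-fold. That of Ccl5 was 0.447 in cluster 1, 1.65 in cluster 2 and 1.73 in cluster 14, in different directions. Ccl12 had 1.06 (0.922 to 1.21) in cluster 1, which held more of its UMIs than any other, and 0.46 (0.376 to 0.56) in cluster 14. Ccl3 and Ccl4 had ratios of 0.748 (0.718 to 0.779) and 0.741 (0.722 to 0.761). Cluster 14, their strongest site, was 34 of 509 such cells in the library labelled Otud1-/- and 176 of 2199 in the WT library. Within clusters, the ratio of Ccl4 was 1.16 (1.1 to 1.21) in cluster 1, 1.09 (1.02 to 1.17) in cluster 2 and 0.836 (0.805 to 0.867) in cluster 14. Ccl2, Ccl9 and Ccl7 had class ratios of 1.32 (1.23 to 1.41), 1.32 (1.24 to 1.41) and 0.89 (0.818 to 0.968). That of Ccl7 joined different directions, with 1.41 (1.29 to 1.55) in cluster 1, 2.14 (1.25 to 3.83) in cluster 2 and 0.208 (0.127 to 0.324) in cluster 14. Its class log2 ratio turned to 0.29 with at most 5% mitochondrial UMIs. The median log2 ratio of the 8 was -0.29, against 0.07 for all 2731 genes compared. Depth differed in these cells, with medians of 10870 UMIs in the library labelled Otud1-/- and 2316.5 in WT in cluster 1.

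Neutrophil-like cells had the highest backgrounds. Of 4 members compared, 1 was higher, where 23.9% of all genes were, and 1 was lower, where 21.8% were, so these counts are near what genes at large did. Ccl6 had a ratio of 1.81 (1.69 to 1.94), but 1.2 in cluster 6 and 0.425 in cluster 9, which the libraries filled unequally. As scaled here, neither main cluster was thus 1.5-fold higher. Ccl5 had 0.206 (0.168 to 0.251), with 42.2 CPM in the library labelled Otud1-/- against 205 CPM in WT, where its background in B-like cells was 23.3 CPM in the library labelled Otud1-/- and 54.1 CPM in WT. Ccl3 had 0.904 (0.861 to 0.95) and Ccl4 1.02 (0.963 to 1.08). Scaling by trimmed mean of M values (TMM) moved all neutrophil log2 ratios up by 0.54 and scaling by the median of ratios by 0.66. With these scalings Ccl3 turned to the higher side (log2 ratios 0.40 and 0.51), and Ccl4 had 0.57 and 0.69. The genes counted as higher and lower were 539 and 490 as scaled here, 1170 and 270 with TMM and 1316 and 240 with the median of ratios.

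Of 6 members compared in dendritic-like cells, 0 were higher (background 2.11%) and 1 was lower (background 5.37%). Ccl3 had 35.5 CPM in the library labelled Otud1-/- against 68.4 CPM in WT, a ratio of 0.519 (0.405 to 0.661) at a low level. It stayed past 1.5-fold under 8 of 10 alternatives, and had log2 ratios of -0.45 without doublet removal and -0.38 at Leiden resolution 0.5. Ccl9 had 1.47 (1.28 to 1.68) and Ccl6 1.44 (1.25 to 1.67), just inside the threshold, and with TMM or the median of ratios, which moved log2 ratios up by 0.17 and 0.16, both passed it. Ccl4, Ccl5 and Ccl22 had 0.839, 1.04 and 1.03. All genes split into 52 higher and 132 lower there, against 178 and 59 with TMM. In NK-like cells that split was 88 and 79, against 134 and 66 with TMM. In T-like cells only Ccl5 could be compared, and it was higher (background 0.616%, with 3.39% lower), with a ratio of 1.77 (1.72 to 1.83). All genes split into 16 higher and 88 lower there, against 23 and 64 with the median of ratios. As given above, this Ccl5 difference was carried by cluster 23, and at Leiden resolution 0.5, where the boundary of NK-like and T-like cells fell elsewhere, the log2 ratio was -1.33. No member could be compared in B-like cells.

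**Figure D3:**
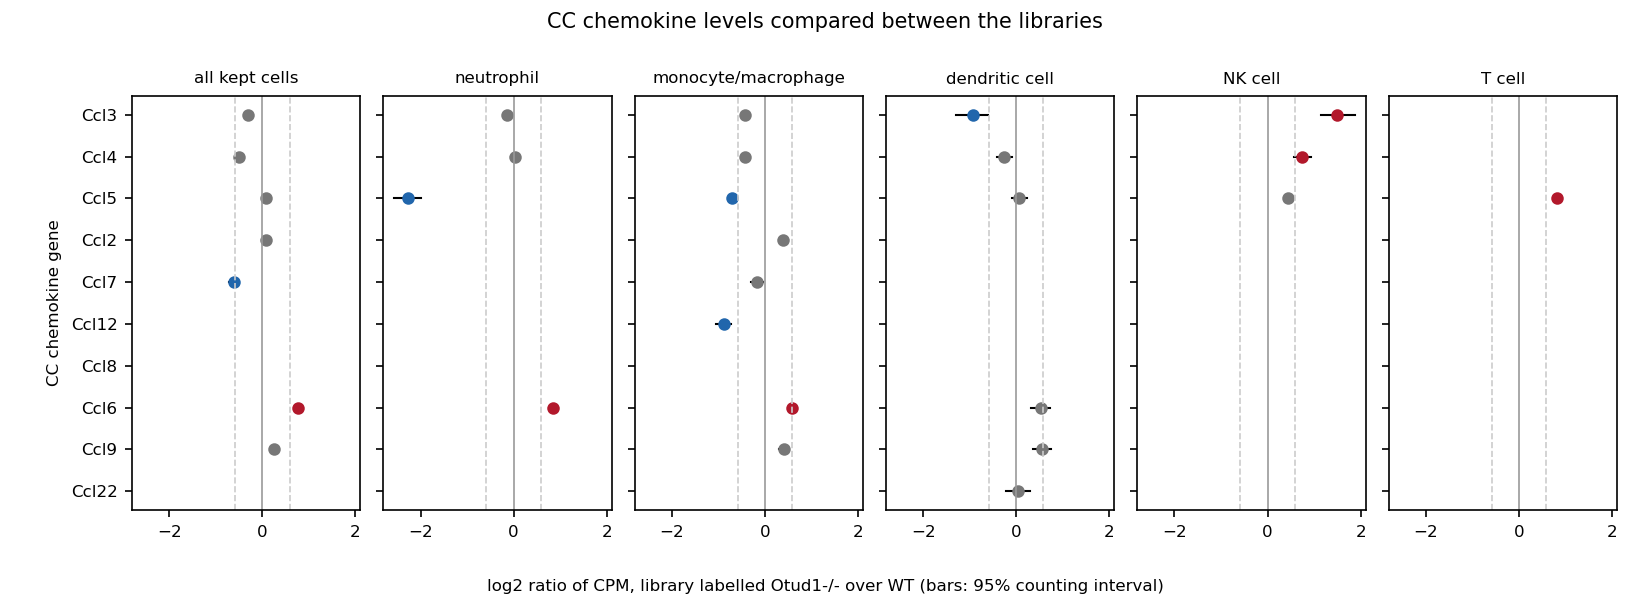
Log2 ratio of CPM, library labelled Otud1-/- over WT, for each member that could be compared, with 95% counting intervals, over all kept cells and in 5 classes (names mean "-like"). Red points were at least 1.5-fold higher, blue points at least 1.5-fold lower and grey points within the dashed lines; Ccl3 in NK-like cells lies farthest to the right and Ccl5 in neutrophil-like cells farthest to the left.

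Neighbouring genes differed in how often they were found in the same cells, and this depended on the class. Over 43 points, each a cluster of at least 50 cells in 1 library, Pearson's r of log2(CPM + 1) was 0.89 for Ccl3 and Ccl4, 0.84 for Ccl2 and Ccl7 and 0.78 for Ccl6 and Ccl9, the 3 highest of 45 pairs. Next came genes of different stretches of chromosome 11, with 0.76 for Ccl2 and Ccl9 and 0.74 for Ccl2 and Ccl6. The other neighbours had 0.71 (Ccl7 and Ccl12), 0.69 (Ccl6 and Ccl3), 0.55 (Ccl12 and Ccl8) and 0.26 (Ccl5 and Ccl9). High values were thus not limited to neighbours, and not all neighbours had them. The points share their 2 libraries, and the values are descriptive. In thinned neutrophil-like cells of the library labelled Otud1-/-, Ccl3 was found in 62.1% of cells with Ccl4 and 27.8% of cells without it. In those of the WT library the shares were 68.9% and 27%. Monocyte/macrophage-like cells gave 54.1% and 10.8% in the library labelled Otud1-/- and 53.1% and 9.09% in the WT library. Ccl2 was found in 44% of monocyte/macrophage-like cells with Ccl7 and 14% of those without it in the library labelled Otud1-/-, and in 53% and 12.5% in the WT library. In the same class, Ccl7 was found in 30.4% of cells with Ccl12 and 3.92% without it in the library labelled Otud1-/-, and in 26.4% and 6.75% in WT. Ccl12 was found in 4 of 9 cells with Ccl8 and 4.02% without it in the library labelled Otud1-/-, and in 32.6% and 6.57% in WT. In thinned neutrophil-like cells, Ccl9 was found in 1.37% of cells with Ccl6 and 1.31% of cells without it in the library labelled Otud1-/-, and in 4.03% and 4.33% in the WT library. Only 11 of 819 such cells of the library labelled Otud1-/- and 30 of 710 of WT had Ccl9, too few to judge a link. In monocyte/macrophage-like cells, Ccl9 was found in 29.9% of cells with Ccl6 and 22.2% without it in the library labelled Otud1-/-, with overlapping intervals. In those of WT the shares were 27.7% and 15.5%. Among monocyte/macrophage-like cells of the library labelled Otud1-/-, Ccl5 was found in 15.8% of cells with Ccl9 and 12.4% of cells without it, and Ccl6 in 31.4% of cells with Ccl3 and 35.5% of cells without it. In those of the WT library, the shares were 18.4% and 26.5% for Ccl5 by Ccl9, and 18.8% and 25.2% for Ccl6 by Ccl3. In neutrophil-like cells, which pool clusters with different levels of both genes, Ccl6 was found at similar shares with and without Ccl3. It was found in 52.3% of cells with Ccl3 and 54.1% of cells without it in the library labelled Otud1-/-, and in 36% and 34.3% in the WT library.

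**Figure D4:**
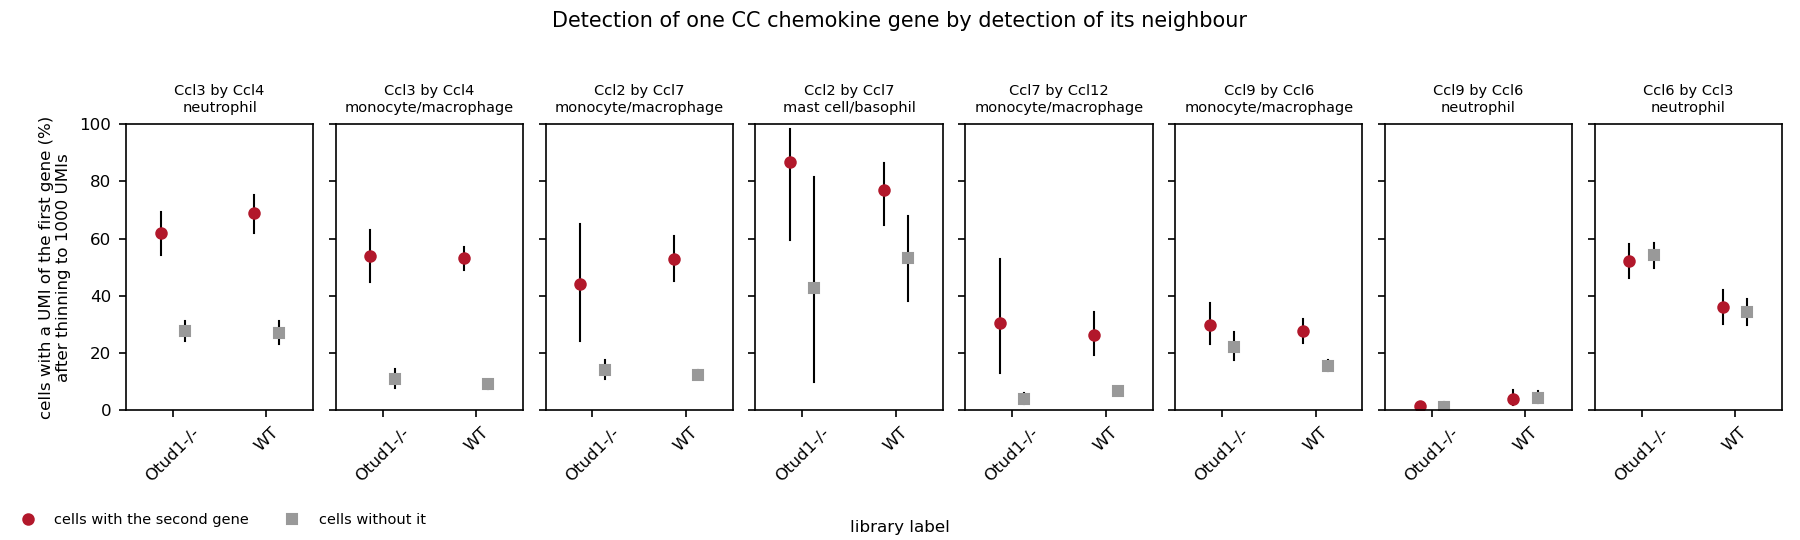
Share of thinned cells with a UMI of the first gene among cells with (red circles) and without (grey squares) a UMI of the second gene, in percent with 95% Clopper-Pearson intervals, for 8 combinations of gene pair and class (names mean "-like"), the library labelled Otud1-/- left of WT. The circles lie above the squares for Ccl3 by Ccl4 and, with overlapping intervals in mast cell/basophil-like cells, for Ccl2 by Ccl7, while for Ccl6 by Ccl3 they lie together.

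Over the same 43 points, the gene most like each member by Pearson's r was Il1a for Ccl3 (0.87), Fcer1g for Ccl4 (0.88), Gzma for Ccl5 (0.88), Zfand5 for Ccl2 (0.87) and Pmp22 for Ccl7 (0.84). It was C1qa for Ccl12 (0.84), C1qc for Ccl8 (0.68), Cd14 for Ccl6 (0.94), Pid1 for Ccl9 (0.89) and Adam23 for Ccl22 (0.82). Ccl6 had the closest match and Ccl8, whose UMIs came from few cells, the loosest. The next in line were Rab20 and Cxcl2 for Ccl3, AW112010 and Nkg7 for Ccl5, Nlrp3 and Clec4e for Ccl6, C1qc and C1qb for Ccl12, and C1qa and C1qb for Ccl8.

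Of 10 other CC ligands, 0 reached the level for comparison in any class. Ccl1, a ligand of CCR8, stood at 569 CPM in ILC2-like cells (group 2 innate lymphoid cells) of the library labelled Otud1-/- and 638 CPM in those of the WT library. This class had 32 cells in the library labelled Otud1-/- and was not among those compared. Ccl17, which shares CCR4 with Ccl22, was highest in cluster 15 too, with 604 CPM in the library labelled Otud1-/- and 309 CPM in WT. Ccl24, an eosinophil attractant, had 11.9 CPM in cluster 2 of the library labelled Otud1-/-, where 1.56% of cells had a UMI, and 88.7 CPM in that of WT, where 0.772% did, so both levels rest on few cells. Among 14 receptors, 6 could be compared over all kept cells, of which 1 was higher (background 3.9%) and 1 lower (background 1.64%). Ccr1, the receptor of Ccl3, Ccl5, Ccl6 and Ccl9, was the higher one, with a ratio of 2.14 (2.05 to 2.24). Cluster 6, of which most cells were in the library labelled Otud1-/-, had the highest Ccr1 level, with 1427 CPM in the library labelled Otud1-/- and 1187 CPM in the WT library. The ratio of Ccr1 was 1.96 (1.84 to 2.09) in neutrophil-like and 1.94 (1.79 to 2.1) in monocyte/macrophage-like cells. In neutrophil-like cluster 9 it was at 586 CPM in the library labelled Otud1-/- and 587 CPM in WT, so within the 2 main neutrophil-like clusters the libraries lay closer than in the class as a whole. Ccr9 was lower over all kept cells, with a ratio of 0.373 (0.349 to 0.398), while in plasmacytoid dendritic-like cluster 11, its main site, the levels were 1818 CPM in the library labelled Otud1-/- and 1786 CPM in WT. Ccr2, the receptor of Ccl2, Ccl7 and Ccl12, had 0.995 (0.956 to 1.04) over all kept cells.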

How the data were processed

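Immune cells of the gingiva were profiled with the 10x Genomics 3′ chemistry, version 3.1, per the labels' protocols. The authors deposited raw counts of UMIs for each gene and barcode, not normalised. The mm10 build, Seurat 3.2.3 and Cell Ranger 5.0.0 are named in the submitters' processing notes, and per the file headers the matrices came from Cell Ranger 6.0.1. The library labelled Otud1-/- held 8109 barcodes and 44083735 UMIs, and the WT library 13267 barcodes and 44878537 UMIs. Cells under 200 genes or above 15% mitochondrial UMIs were left out. The doublet scores of a Scrublet-type simulation removed 450 cells of the library labelled Otud1-/- and 1355 of WT, at a rate of 0.8% per 1000 barcodes. Both libraries were clustered together without integration (scanpy 1.11.5; 2000 variable genes without Ccl, Otud1, sex-linked, immunoglobulin, T cell receptor, ribosomal and mitochondrial genes; 30 components; 20 neighbours; Leiden resolution 1). A cluster was named from at least 3 of a class's markers among its 50 leading genes, provided no other class tied or had more of them in its top 10. Class names rest on this rule and other names would move the shares. Of the member UMIs of all barcodes, 83.5% to 95.4% in the library labelled Otud1-/- and 55.0% to 82.5% in the WT library were in kept cells.

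UMIs were summed per library and cluster or class and scaled to CPM. Levels carry exact Poisson, shares Clopper-Pearson and ratios exact conditional binomial 95% intervals, all for counting error only, with a floor of 3 counts for a value of 0. Ratios divide the library labelled Otud1-/- by WT (prior 0.5 CPM in log2 ratios), in classes with at least 100 cells in both libraries. Shares of cells were also computed after thinning to 1000 UMIs, which left out 266 cells of the library labelled Otud1-/- and 1267 of WT. The ratio step was checked on simulated counts. TMM factors came from edgeR 4.0.16, used for scaling only, and alignments of promoters from Biopython 1.88. All 10 members were named, with lists of other ligands and receptors, and the 3 most similar genes of each member. The members and lists were chosen with earlier results of these data known. Alternatives tried were the mitochondrial limit, doublet removal, male-transcript cells only, Ccl genes in clustering, a lower resolution, other scalings, a lower level for comparison, each gene's highest cell left out and equal weights for cells.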

Additional observations from a re-analysis of the deposited data

How the results depend on the processing

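No paired analysis was possible because each genotype had 1 library, and for the same reason no replicate could be left out. Counted over classes, 5 member and class pairs were higher and 4 lower in the library labelled Otud1-/-, where 0.616% to 23.9% of all genes were higher and 3.19% to 21.8% lower by class. The higher count was 8 with at most 5% mitochondrial UMIs and 8 with the median of ratios. The lower count was 2 with at most 5% mitochondrial UMIs, 1 in cells with a Y-linked UMI and no Xist, and 8 with a minimum of 20 CPM and 50 UMIs. Over all kept cells, 1 higher and 1 lower member were counted. The lower count was 0 with at most 5% mitochondrial UMIs, with TMM and with the median of ratios, 2 without doublet removal and with a minimum of 20 CPM and 50 UMIs, and 3 with cells weighted equally, which also made the higher count 0. Among members past 1.5-fold, the values that changed sign were the log2 ratios of Ccl3 in NK-like cells (-0.044 in cells with a Y-linked UMI and no Xist) and of Ccl5 in T-like cells (-1.33 at Leiden resolution 0.5), and the cause was not tested. Ccl6 and Ccl5 in neutrophil-like cells stayed past 1.5-fold under all 10 alternatives as a class. As first scaled, Ccl6 was within 1.5-fold or lower in the 2 main clusters (ratios 1.2 and 0.425). Of 276 log2 ratios under alternatives, 159 lay within the counting interval of the value reported, and 22 of the 276 had the other sign, the 2 above and 20 of members within 1.5-fold, such as Ccl3 in neutrophil-like cells (0.40 with TMM and 0.51 with the median of ratios). Of 100 levels and 100 shares of UMIs under alternatives, 40 and 36 lay within it. Depth limits Ccl8, Ccl12 and Ccl22, which had under 50 CPM over all kept cells, and clusters of few cells in the library labelled Otud1-/-.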

Other observations

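Fibroblast-like cells, 34 in the library labelled Otud1-/- and 18 in the WT library, held nearly all Ccl19 and Ccl11 UMIs of the library labelled Otud1-/-. Ccl19, a ligand of CCR7, had 411 CPM and 95.4% of its UMIs there, and Ccl11, an eosinophil attractant, 207 CPM and 97.3%. The fibroblast-like cells of the WT library held 0 UMIs of either gene, which allows up to 73.5 CPM. The unnamed cluster 21, led by Il22, held 7 cells of the library labelled Otud1-/- and 153 of the WT library. In its WT cells Ccl4 was at 1381 CPM (1245 to 1528) and Ccl5 at 1157 CPM (1033 to 1292), but 10 cells held 86.4% and 92.4% of these UMIs. In mast cell/basophil-like cells of the library labelled Otud1-/-, 1 cell held 98.7% of the 77 Ccl3 UMIs.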
